A study of Homo sapiens with 8 samples.

Results

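The kinesin motor genes were read in 22Rv1, a prostate cancer cell line, at 36 h after transfection in suspension with 20 nM of a miR-194 mimic or 20 nM of a negative control RNA. A mimic is a double-stranded RNA that supplies the mature microRNA, and there were 4 libraries in each group, all from the same line at the same range of passages and with the same transfection step. Cells without transfected RNA were not analysed here, and higher with the mimic therefore also means lower with the control RNA. The members were the 39 symbols of the deposited count table, of 23346 in all, that consist of KIF, a number and at most a letter and a digit. The rule names 10 of them as mitotic kinesins, and 15 more were listed here as transport kinesins (KIF1A, KIF1B, KIF1C, KIF3A, KIF3B, KIF3C, KIF5A, KIF5B, KIF5C, KIF13A, KIF13B, KIF16B, KIF17, KIF21A and KIF21B). The other 14 hold microtubule-end, ciliary and little studied kinesins.

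Kinesins are motor proteins that use ATP to walk along microtubules or to take tubulin off their ends. Mitotic kinesins build the spindle, move chromosomes and set up the cleavage site, and their messenger RNAs are made mostly in late S phase, G2 and mitosis, so they mark cycling cells in a tumour line. Transport kinesins carry vesicles, mitochondria and ciliary cargo at all stages of the cycle, and several of them are known best from neurons.

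Sites for the guide strand of the mimic are shown first, since the cells were given this microRNA. The mature sequence is from RefSeq (GRCh38.p14), with the seed, bases 2 to 8, in capitals.
miR-194-5p: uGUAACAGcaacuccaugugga
An 8mer site reads CTGTTACA on the messenger RNA, a 7mer-m8 site CTGTTAC, a 7mer-A1 site TGTTACA and a 6mer site TGTTAC. Of the 35 members tested below, all of which had a 3' UTR in GENCODE 29 (GRCh38), 5 (14.3%) held an 8mer or 7mer site in the longest annotated 3' UTR, while among all 13440 tested genes that had a 3' UTR the share was 20.6%. These stretches of 30 bases hold the sites of those 5 genes, with the site in capitals and the position of the capitals after the gene name.
KIF18B, 8mer, chr17:44925876-44925883, minus strand: ctgttaatctcCTGTTACActcagcttctt
KIF1B, 8mer, chr1:10379136-10379143, plus strand: cattgatgctgCTGTTACAgagtgtgacag
KIF1B, 7mer-A1, chr1:10377979-10377985, plus strand: gaccttgtgatTGTTACAgctccctttgat
KIF3C, 7mer-m8, chr2:25927946-25927952, minus strand: tccagctttgcCTGTTACccctgtttctga
KIF3A, 7mer-A1, chr5:132696626-132696632, minus strand: aTGTTACAgacttaaagtcacaataaaaat
KIF16B, 7mer-A1, chr20:16272432-16272438, minus strand: ttcacatttttTGTTACAgaatctattgga
The site of KIF3A starts at base 2 of its 3' UTR, right after the stop codon. None of the 10 mitotic kinesins named by the rule held an 8mer, 7mer or 6mer site in the longest 3' UTR. Their 3' UTRs were short, with a median of 584 bases against 3225 for the transport kinesins and 1383 over the tested genes as a whole. In coding sequence, KIF11 held an 8mer match and KIF18A and KIF23 a 7mer-A1 match. Over the same background, 12.7% of genes held an 8mer or 7mer match in coding sequence.

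Most mitotic kinesins fell with the mimic and most transport kinesins did not pass the test. Of the 39 members, 35 had enough counts to be tested. Among them 11 fell and 4 rose at an adjusted p below 0.05 (quasi-likelihood F test of edgeR, Benjamini-Hochberg over 14977 genes). Over all genes tested, 38.1% passed, 19.9% lower and 18.3% higher, and the median log2 fold change was 0.0017. The 10 mitotic kinesins gave 8 that fell and 0 that rose, and their log2 fold changes had a median of -0.20 and ran from -0.50 to -0.03. DESeq2 and limma-voom also called 0 of these 10 higher, and all 10 had a negative fold change. The 15 transport kinesins gave 1 that fell and 4 that rose, with a median of 0.06. Of the 10 others that were tested, 2 fell and 8 did not pass, and their median was -0.11. By values alone, 6 mitotic kinesins had 4 mimic libraries that all lay below the 4 control libraries. Over all genes 36.9% had no overlap between the groups, 19.5% with the mimic lower and 17.4% with the mimic higher. The lists were chosen with earlier results of these data known, so the counts are a description.

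**Figure D1:**
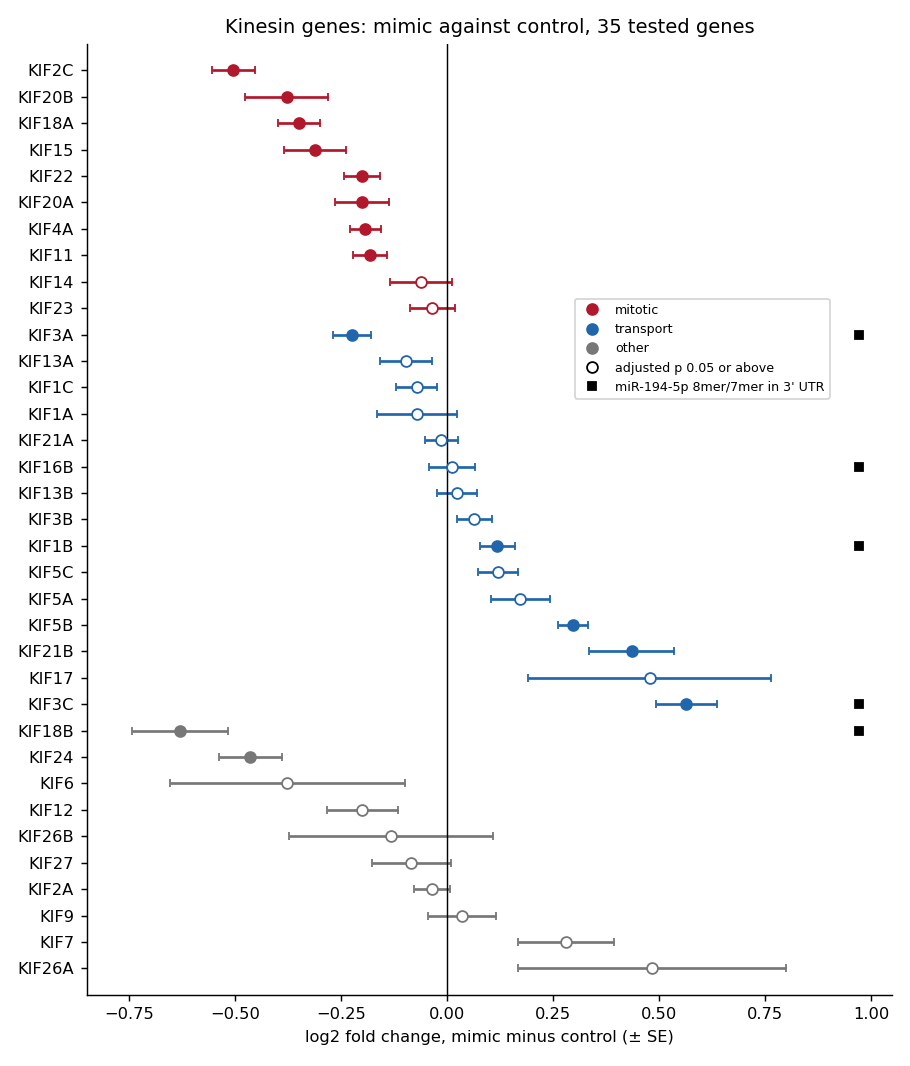
Log2 fold change (mimic minus control) with its SE for the 35 tested kinesin genes, in red for mitotic, blue for transport and grey for other members; open circles did not pass an adjusted p of 0.05 and black squares mark genes with an 8mer or 7mer miR-194-5p site in the 3' UTR. All 10 mitotic kinesins lie left of 0, and KIF3C, KIF21B and KIF5B lie farthest right among the members that passed.

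KIF2C, a kinesin-13 that takes tubulin off microtubule ends at kinetochores, had the largest fall of the mitotic kinesins. Its level was 97.6, 98.5, 93.8 and 94.9 CPM (the count scaled to a common library total) in control replicates 1 to 4 and 71.5, 71.7, 61.3 and 66.9 CPM in mimic replicates 1 to 4. The groups did not overlap, and the log2 fold change was -0.50 ± 0.05 (SE, n = 4 in each group, edgeR adjusted p = 1.3e-05). KIF18A, a kinesin-8 that damps chromosome movement at microtubule plus ends, stood at 27.0, 25.0, 26.5 and 27.6 CPM in the control libraries and at 20.7, 21.0, 20.1 and 21.4 CPM with the mimic. The mimic libraries lay close together and all below the control libraries, with a log2 fold change of -0.35 ± 0.05 (SE, edgeR adjusted p = 0.0002).

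The motors of spindle polarity and the chromosome arms also fell. KIF15, which helps to keep the spindle bipolar, measured 57.8, 55.0, 53.2 and 49.1 CPM in the control libraries and 45.3, 48.0, 37.5 and 42.7 CPM with the mimic, a log2 fold change of -0.31 ± 0.07 (SE, edgeR adjusted p = 0.00626). Its highest mimic library lay just below its lowest control library. KIF11, the main motor that pushes spindle poles apart, had 157.5, 150.5, 152.1 and 149.6 CPM in the control and 136.1, 141.8, 126.0 and 133.7 CPM in the mimic libraries. The groups did not overlap, and KIF11 fell by 0.18 ± 0.04 on the log2 scale (SE, edgeR adjusted p = 0.00366). KIF4A, a chromokinesin that also acts at the spindle midzone, had 132.1, 131.7, 131.0 and 130.2 CPM in the control libraries, the tightest control group of the mitotic kinesins relative to its mean. In the mimic libraries KIF4A had 117.9, 118.7, 108.4 and 114.4 CPM, and it fell by 0.19 ± 0.04 on the log2 scale (SE, edgeR adjusted p = 0.00129). KIF22, a chromokinesin that pushes chromosome arms away from the poles, had 122.4, 126.9, 113.9 and 119.3 CPM in the control and 107.0, 108.9, 98.7 and 105.4 CPM in the mimic libraries. It fell by 0.20 ± 0.04 on the log2 scale (SE, edgeR adjusted p = 0.00351) without overlap.

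The motors of cytokinesis were divided. KIF20B, a midzone motor, had 20.9, 21.0, 19.9 and 16.9 CPM in the control and 16.0, 17.4, 13.0 and 14.2 CPM in the mimic libraries, so control replicate 4 lay inside the mimic range. Its log2 fold change was -0.38 ± 0.10 (SE, edgeR adjusted p = 0.0100). KIF20A, which brings the chromosomal passenger complex to the midzone, had 84.6, 79.8, 71.2 and 72.7 CPM in the control and 72.3, 67.5, 61.2 and 67.3 CPM in the mimic libraries, with overlap. KIF20A fell by 0.20 ± 0.06 on the log2 scale (SE, edgeR adjusted p = 0.0283). Leaving out 1 library gave adjusted p from 0.0194 to 0.0860, and the call was lost without mimic replicate 2, 3 or 4 or control replicate 1 or 2. KIF14, which binds citron kinase at the midbody, did not pass, with 79.1, 74.8, 73.4 and 65.7 CPM in the control and 73.9, 77.5, 61.8 and 67.7 CPM in the mimic libraries. The log2 fold change of KIF14 was -0.06, with a 95% interval (normal, from the SE) of -0.21 to 0.08. KIF23, the motor of the centralspindlin complex, did not pass either, with 114.3, 110.2, 105.0 and 105.2 CPM in the control and 110.0, 114.5, 97.3 and 102.8 CPM in the mimic libraries. The log2 fold change of KIF23 was -0.03, with a 95% interval of -0.14 to 0.07.

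Among members outside the mitotic list, KIF18B and KIF24 fell. KIF18B, a kinesin-8 of astral microtubules in mitosis, had 60.2, 63.7, 50.4 and 50.1 CPM in the control libraries and 38.3, 43.0, 30.8 and 33.2 CPM with the mimic. The groups did not overlap, replicates 1 and 2 were higher than 3 and 4 in each group, and the log2 fold change of -0.63 ± 0.11 (SE, edgeR adjusted p = 0.00161) was the largest fall of any tested member. KIF18B was also the tested member with an 8mer site outside the transport list. KIF24, a kinesin-13 of the centriole that holds back the growth of cilia, had 39.4, 36.3, 34.1 and 34.6 CPM in the control and 28.9, 25.7, 22.7 and 27.3 CPM in the mimic libraries. KIF24 fell by 0.46 ± 0.07 on the log2 scale (SE, edgeR adjusted p = 0.000477) without overlap, and its 3' UTR held no site.

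**Figure D2:**
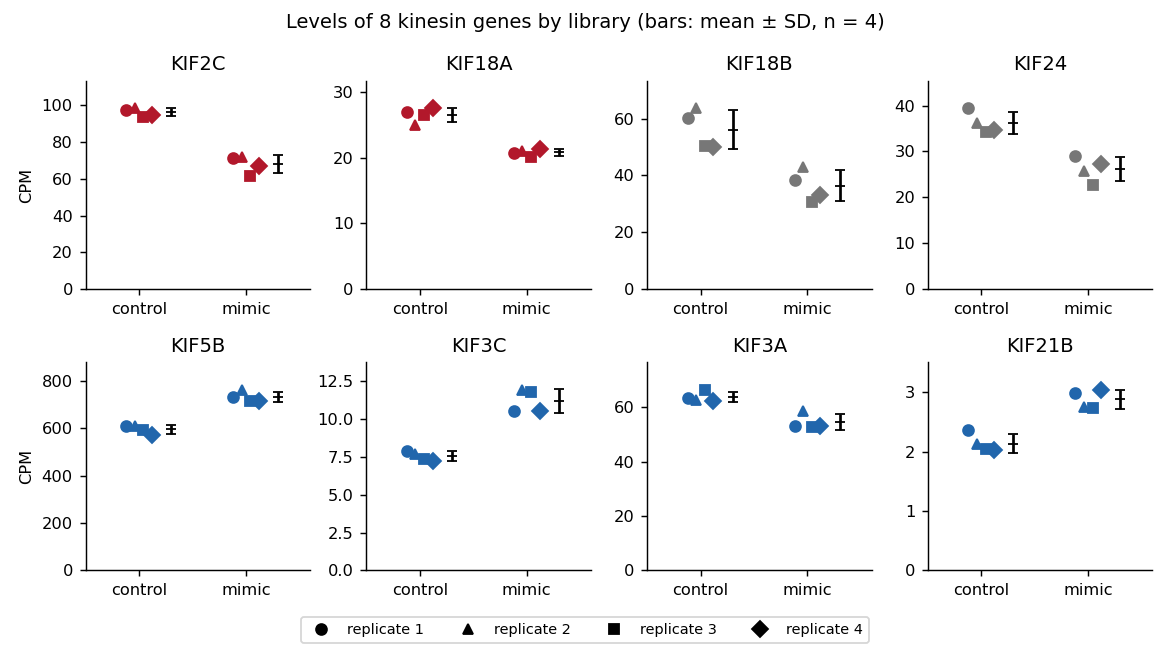
Level in CPM in each library for 8 kinesin genes, with marker shape giving the replicate number and a bar for the mean ± SD (n = 4); each vertical axis starts at 0. KIF2C, KIF18A, KIF18B, KIF24 and KIF3A are lower in every mimic library than in any control library, and KIF5B, KIF3C and KIF21B are higher.

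Most mitotic kinesins also differed between the replicate numbers. In a fit that kept the treatment, 6 of the 10 were lower in replicates 3 and 4 than in the other two (edgeR adjusted p below 0.05) and 0 were higher, with a median log2 difference of -0.12, against 11.8% of all genes lower and 10.2% higher. The labels do not say what these replicate numbers share. Within replicates 1 and 2 the median log2 fold change of the mitotic kinesins with the mimic was -0.22 and 8 fell, and within replicates 3 and 4 it was -0.22 and 7 fell. KIF20A did not pass within replicates 3 and 4 (adjusted p = 0.0538). The summed level of the 10 genes was 859.5 ± 29 CPM in the control and 744.9 ± 44.9 CPM in the mimic libraries (SD, n = 4 each), with ranges of 831.2 to 893.4 and 685.3 to 786.9. In bulk RNA, fewer cells in G2 and mitosis and less of these messenger RNAs per cell cannot be told apart.

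**Figure D3:**
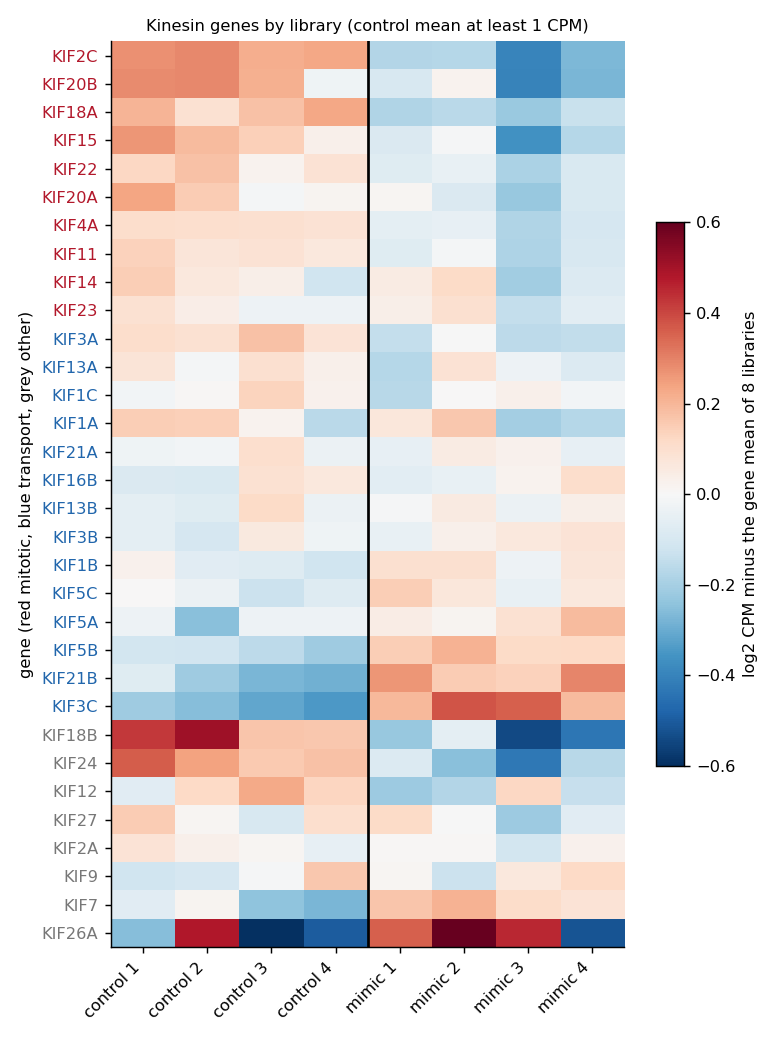
Log2 CPM of each gene minus its mean over the 8 libraries, for the members with a control mean of at least 1 CPM; colours stop at 0.6 in each direction, and gene names are red for mitotic, blue for transport and grey for other members. The mitotic rows are lowest in mimic replicate 3, KIF5B, KIF21B and KIF3C are higher in the 4 mimic libraries, and KIF26A differs between replicates of both groups.

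KIF5B was the most abundant kinesin and rose. It is the kinesin-1 heavy chain found in most tissues, which carries mitochondria, lysosomes and many vesicles. Per kilobase of annotated exon its control level was 101.4 CPM, and the next was KIF22 with 43.2 CPM per kilobase. In the control libraries KIF5B had 611.6, 609.6, 592.1 and 570.0 CPM, and in the mimic libraries 732.2, 763.7, 715.3 and 717.4 CPM. The groups were well apart, with a log2 fold change of 0.30 ± 0.03 (SE, edgeR adjusted p = 4.79e-05) and no miR-194-5p site in the 3' UTR. The summed level of the 15 transport kinesins was 1729 ± 46.0 CPM in the control and 1869 ± 55.5 CPM in the mimic libraries (SD, n = 4 each). Without KIF5B the sums were 1133 ± 33.1 and 1137 ± 33.6 CPM, a difference smaller than either SD.

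The other kinesin-1 heavy chains, which are known mainly from neurons, did not pass here, and their calls depend on the fit. KIF5A had 13.7, 11.8, 13.7 and 13.7 CPM in the control and 14.4, 14.2, 14.9 and 16.0 CPM in the mimic libraries. All mimic libraries were higher, and the log2 fold change was 0.17 ± 0.07 (SE, edgeR adjusted p = 0.0710, and 0.0176 with the replicate block). KIF5C averaged 63.2 ± 2.50 CPM in the control and 68.7 ± 3.75 CPM in the mimic libraries (SD, n = 4 in each group). Its log2 fold change was 0.12 (edgeR adjusted p = 0.0664, and 0.00678 with the replicate block). KIF5C also passed under upper quartile factors (adjusted p = 0.0439) and without mimic replicate 3 (adjusted p = 0.0192). The light chains that bind cargo for kinesin-1 were read from a list of 21 adaptors and light chains. KLC1 rose by 0.29 on the log2 scale (edgeR adjusted p = 0.000947) and KLC2 by 0.24 (edgeR adjusted p = 0.000563), while KLC3 and KLC4 did not pass.

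The kinesin-2 genes moved in opposite directions. KIF3A pairs with KIF3B or KIF3C, and the KIF3A and KIF3B pair with its adaptor KIFAP3 forms the motor that builds cilia. KIF3A had 63.2, 62.7, 66.4 and 62.2 CPM in the control and 53.2, 58.7, 52.8 and 53.1 CPM in the mimic libraries. It fell without overlap, with a log2 fold change of -0.23 ± 0.04 (SE, edgeR adjusted p = 0.00208), and has the 7mer-A1 site shown above. KIFAP3 fell by 0.22 on the log2 scale (edgeR adjusted p = 0.000995), and its 3' UTR held no site. KIF3B averaged 156.6 ± 7.39 CPM in the control and 163.7 ± 6.25 CPM in the mimic libraries (SD, n = 4 each) and did not pass (edgeR adjusted p = 0.257). KIF3C had 7.91, 7.70, 7.39 and 7.22 CPM in the control and 10.5, 11.9, 11.8 and 10.5 CPM in the mimic libraries. Each mimic library was above each control library, and the log2 fold change of 0.56 ± 0.07 (SE, edgeR adjusted p = 8.42e-05) was the largest rise among the members that passed. The 3' UTR of KIF3C held the 7mer-m8 site shown above.

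Of the kinesin-3 and kinesin-4 transport genes, KIF1B and KIF21B rose. KIF21B, a motor that also slows microtubule growth, had 2.36, 2.13, 2.04 and 2.02 CPM in the control and 2.99, 2.76, 2.74 and 3.04 CPM in the mimic libraries. It rose without overlap, by a log2 fold change of 0.44 ± 0.10 (SE, edgeR adjusted p = 0.0050), at a low level, and within replicates 1 and 2 alone it did not pass (log2 fold change 0.37, adjusted p = 0.0743). KIF1B, which carries mitochondria and synaptic vesicle precursors, had 146.4, 137.2, 136.5 and 132.5 CPM in the control and 153.8, 154.0, 140.8 and 151.3 CPM in the mimic libraries. The groups overlapped, and the log2 fold change was 0.12 ± 0.04 (SE, edgeR adjusted p = 0.0431). The call was lost without mimic replicate 1, 2 or 4 or control replicate 2, 3 or 4 (adjusted p from 0.0115 to 0.117 with 1 library left out). KIF1B had the 8mer and the 7mer-A1 site shown above. KIF16B, an early endosome motor with a 7mer-A1 site, had 57.9, 57.6, 65.4 and 64.2 CPM in the control and 58.8, 59.6, 62.4 and 66.0 CPM in the mimic libraries, and did not pass. Of the 5 members with an 8mer or 7mer site, 2 fell (KIF18B and KIF3A), 2 rose (KIF1B and KIF3C) and 1 did not pass. Of the tested genes with such a site, 1130 of 2771 fell and 316 rose.

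The remaining transport kinesins did not pass, with log2 fold changes from -0.10 for KIF13A to 0.48 for KIF17. KIF1A, the motor of synaptic vesicle precursors in neurons, had 221.5, 220.9, 202.9 and 178.9 CPM in the control and 209.6, 224.0, 173.6 and 177.6 CPM in the mimic libraries. Its replicates differed more than its groups did, and its level was lower in replicates 3 and 4, with a log2 difference of -0.26 (edgeR adjusted p = 0.000611). KIF21A averaged 225.7 ± 10.2 CPM in the control and 223.6 ± 7.83 CPM in the mimic libraries (SD, n = 4 each). KIF17 averaged under 0.5 CPM in each group, so its fold change rests on 6 to 20 counts per library.

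Because several transport kinesins are known from neurons, neuronal and neuroendocrine markers were read beside them. Over all genes tested, 18.3% rose and 19.9% fell. Of 8 such markers, CHGA and CHGB rose, MAP2 fell by 1.20 on the log2 scale and 5 did not pass. Their summed level ran from 629.1 to 643.7 CPM in the control and from 576.9 to 600.6 CPM in the mimic libraries. MAP2, whose 3' UTR holds 3 miR-194-5p sites, carried this fall. The sum of the other 7, taken after the values were seen, averaged 519.4 CPM in the control and 532.8 CPM in the mimic libraries, with overlapping ranges of 500.5 to 536.8 and 520.2 to 553.0 CPM. The part of these marker differences in the rises of KIF3C and KIF21B was not tested. All 10 luminal prostate markers were above 1 CPM on average, 5 rose and 1 fell, and their sum ran from 4515 to 4730 CPM in the control and from 4702 to 5025 CPM in the mimic libraries. On the log2 scale KLK3 rose by 1.11, KLK2 by 0.79 and KRT18 by 0.42, EPCAM and KRT8 rose as well, and FOXA1 fell by 0.22. The part of the luminal markers in the kinesin differences was not tested. Of 4 endothelial markers, PECAM1 and CDH5 had no count in any library, and 5 immune markers summed to 4.66 to 5.18 CPM in the control and 6.45 to 9.04 CPM in the mimic libraries, where CD68 rose. The 6 fibroblast markers summed to 44.5 to 52.4 CPM in the control and 47.9 to 56.6 CPM in the mimic libraries. Among them LUM averaged 32.1 CPM and COL1A1 11.7 CPM in the control. COL1A1 rose by 0.26 on the log2 scale, and 4 others did not pass.

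Of the other 14 members, 8 were tested and did not pass, and 4 were too low to test. KIF7, which acts in Hedgehog signalling at the tip of the cilium, was higher in each mimic library, with means of 1.68 ± 0.167 CPM in the control and 2.04 ± 0.0809 CPM with the mimic (SD, n = 4 each, edgeR adjusted p = 0.0714, and 0.0478 with the replicate block). KIF12 averaged 26.4 ± 2.19 CPM in the control and 22.9 ± 2.57 CPM in the mimic libraries (SD, n = 4 each, edgeR adjusted p = 0.0793, and 0.00239 with the replicate block). With 1 library left out, its edgeR adjusted p ran from 0.0125 to 0.2045. KIF26A, a kinesin without motor activity, ranged from 2.32 to 5.52 CPM in the control and from 2.75 to 6.60 CPM in the mimic libraries. The log2 fold change of KIF26A was 0.48 (edgeR adjusted p = 0.264, and 0.0318 with the replicate block), and 0.81 without control replicate 2 (adjusted p = 0.0397). KIF2A, a kinesin-13 like KIF2C, averaged 89.7 ± 3.3 CPM in the control and 87.5 ± 3.77 CPM in the mimic libraries (SD, n = 4 each) and did not pass. KIF6, KIF9, KIF26B and KIF27 did not pass either, with log2 fold changes from -0.38 for KIF6 to 0.03 for KIF9. The value of KIF6 rests on 8 to 23 counts per library. It ran from -0.55 to -0.23 with 1 library left out. Replicates 1 and 2 alone gave -0.02 for KIF6, and replicates 3 and 4 alone gave -0.69. KIF2B had no count in any library, KIF19 at most 2, KIF25 at most 5 and KIF4B at most 9 per library. KIF4B is an intronless copy of KIF4A, and how the counting treated reads shared by the pair is not known here.

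Promoter sequence was read because most mitotic members fell together. The cell cycle genes homology region, or CHR, is an element through which the DREAM and MuvB complexes hold back and activate G2 and mitotic genes, and NF-Y, which binds CCAAT, is its usual neighbour. RefSeq promoters (GRCh38.p14), from 250 bases before to 50 bases after the gene start, were matched by symbol for 33 of the 39 members. The letters TTTGAA or TTCGAA on either strand were taken as a CHR-type motif. Of the 10 mitotic kinesins 8 held one, against 1 of 12 transport kinesins, 3 of 11 others (KIF18B, KIF24 and KIF4B), 10.9% of 10216 promoters of tested genes and 16.6% of all 27305 promoters. CCAAT on either strand was held by 8 of the 10 mitotic kinesins, by 3 of 12 transport kinesins and by 36.7% of the promoters of tested genes. Both were held by 7 of the 10, against 4.68% of those promoters. The matches were as common in the partner genes of the mitotic kinesins described below. Of 11 partner promoters, 10 held a CHR-type motif, 9 held CCAAT and 8 held both. These matches are a description of letters and not of binding sites. KIF2C held neither in this window, and KIF20A held CCAAT alone.

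The stretches below run from 70 bases before to 20 bases after the start of 8 members, on the strand of the gene, with CHR-type motifs and CCAAT in capitals on either strand (TTCAAA is TTTGAA read on the other strand, and ATTGG is CCAAT). They are the members with both elements in this window, apart from KIF4B, and show the order of the elements.
KIF11, chr10:92593060-92593149, plus strand: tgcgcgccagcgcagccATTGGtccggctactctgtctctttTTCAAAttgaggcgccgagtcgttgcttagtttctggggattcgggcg
KIF4A, chrX:70290034-70290123, plus strand: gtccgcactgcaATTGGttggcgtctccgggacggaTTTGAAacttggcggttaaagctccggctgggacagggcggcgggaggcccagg
KIF18A, chr11:28108137-28108226, minus strand: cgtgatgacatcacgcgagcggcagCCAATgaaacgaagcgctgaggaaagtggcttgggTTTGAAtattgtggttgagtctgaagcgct
KIF22, chr16:29790681-29790770, plus strand: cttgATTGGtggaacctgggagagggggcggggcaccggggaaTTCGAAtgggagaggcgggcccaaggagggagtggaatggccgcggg
KIF14, chr1:200620732-200620821, minus strand: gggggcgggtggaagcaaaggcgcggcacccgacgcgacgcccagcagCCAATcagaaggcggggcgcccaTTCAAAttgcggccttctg
KIF23, chr15:69414279-69414368, plus strand: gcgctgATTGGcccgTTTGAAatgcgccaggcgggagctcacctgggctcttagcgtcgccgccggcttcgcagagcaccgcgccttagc
KIF18B, chr17:44947754-44947843, minus strand: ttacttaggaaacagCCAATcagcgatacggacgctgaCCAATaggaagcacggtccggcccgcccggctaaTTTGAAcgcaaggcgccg
KIF24, chr9:34329249-34329338, minus strand: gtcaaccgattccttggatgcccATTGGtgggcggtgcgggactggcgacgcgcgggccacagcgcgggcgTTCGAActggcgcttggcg
In each of these 8 the CCAAT or ATTGG lies upstream of the CHR-type motif. KIF14 and KIF23 hold both elements and did not pass the expression test.

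**Figure D4:**
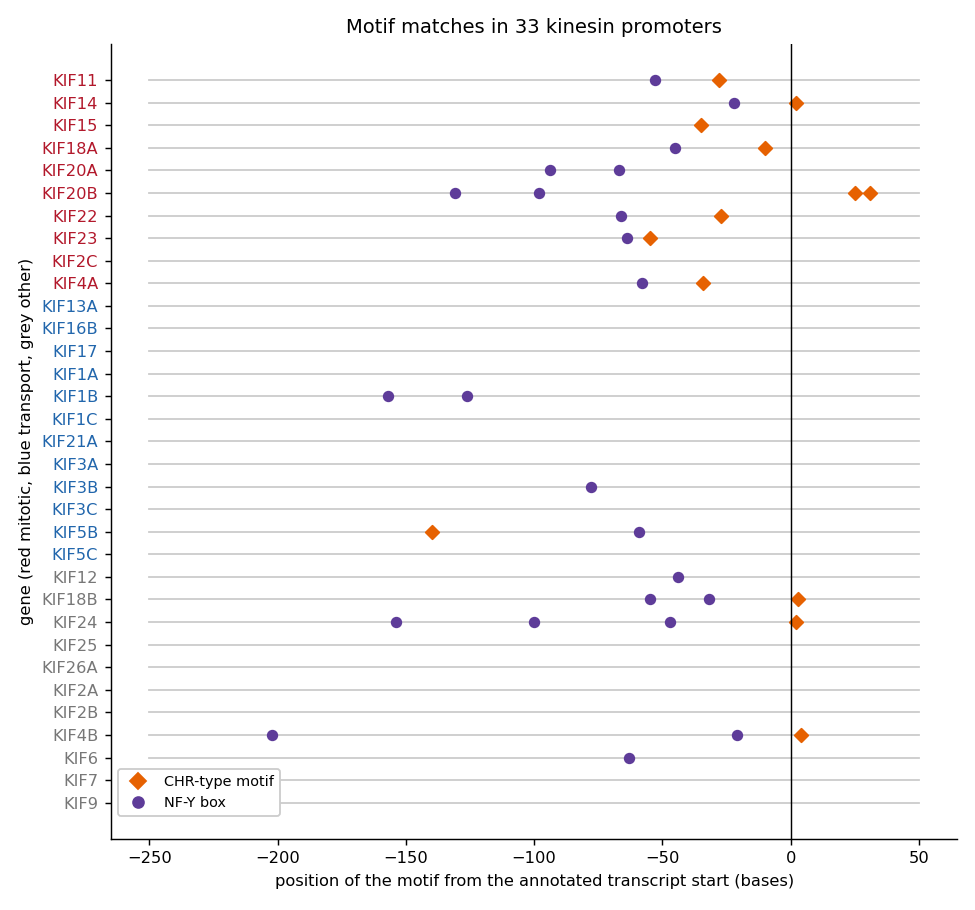
Positions of CHR-type motifs (diamonds) and of CCAAT on either strand (NF-Y box, circles) in 33 kinesin promoters, in bases from the annotated transcript start; gene names are red for mitotic, blue for transport and grey for other members. Diamonds sit near the start in 8 of 10 mitotic kinesins, and 1 of 12 transport kinesins, KIF5B, has a diamond, at -140.

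Of 15 partner proteins of the mitotic kinesins, 13 genes fell and 0 rose, with a median log2 fold change of -0.32; no partner had a positive fold change at an unadjusted p below 0.05. Of all genes tested, 19.9% fell and 18.3% rose. Values in this and the next paragraph are log2 fold changes. PRC1, which bundles midzone microtubules and recruits KIF4A, fell by 0.91 (edgeR adjusted p = 1.39e-07). ECT2, the exchange factor that centralspindlin brings to the midzone, fell by 1.09 (edgeR adjusted p = 3.02e-08), and RACGAP1, the partner of KIF23 in centralspindlin, fell by 0.46 (edgeR adjusted p = 1.05e-05). KIF23, which did not pass, was not tested against these partners. Each of these partner genes has a site in the 3' UTR, shown with the site in capitals.
PRC1, 8mer, chr15:90966531-90966538, minus strand: tgtgttcagttCTGTTACAcagtgcattgc
ECT2, 8mer, chr3:172820403-172820410, plus strand: gtaaggtttacCTGTTACAttttcaagtta
RACGAP1, 7mer-m8, chr12:49990249-49990255, minus strand: gtcacatctgcCTGTTACttcccagcattg
Among the 11 partners without an 8mer or 7mer site 9 fell, and the median was -0.26. BUB1B, a spindle checkpoint kinase, and BIRC5, of the chromosomal passenger complex, were the other 2 of the 5 partners with the smallest p, and fell by 0.41 and 0.52. The 3' UTR of BIRC5 holds a 7mer-A1 site, and that of BUB1B holds no site. Citron kinase (CIT), the partner of KIF14, did not pass at 0.14.

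Kinesins with other symbols and the regulators of this gene class were read in the same fit. Of all genes tested, 19.9% fell and 18.3% rose in it. Of 5 kinesins outside the rule, 4 fell, among them CENPE, the kinetochore motor, by 0.28 and KIFC1, which clusters spindle poles, by 0.30 (edgeR adjusted p = 0.000278 and 0.000447). KIFC2 fell by 0.24 with overlap of the groups (edgeR adjusted p = 0.0128). STARD9 fell by 0.83 (edgeR adjusted p = 0.0135) at a low level, with means of 0.86 CPM in the control and 0.49 CPM in the mimic libraries. KIFC3 did not pass at -0.17. Of 18 regulators of G2/M transcription, 10 fell and 3 rose, with a median of -0.15. LIN9 and LIN52, subunits of MuvB, fell by 0.59 and 0.47, RBBP4 by 0.41, E2F1 by 0.33, E2F3 by 0.20 and LIN54 by 0.17. In contrast, E2F4 and E2F5 rose by 0.22 and 0.31, and LIN37, also of MuvB, did not pass at 0.13. RBL1 fell by 0.32. FOXM1, a factor that MuvB recruits, fell by 0.31 and MYBL2 by 0.38, while NFYA, the subunit of NF-Y that reads CCAAT, rose by 0.40. The NF-Y genes were divided, since NFYB fell by 0.14 and NFYC did not pass at -0.07. All 6 regulators with an 8mer or 7mer site fell, and these are LIN9, LIN52, LIN54, RBBP4, E2F3 and NFYB. Of 21 adaptors and light chains, 7 rose and 5 fell, with a median of 0.05. RHOT1, which ties mitochondria to kinesin-1, fell by 0.25, and TRAK2, its adaptor, fell by 0.34. RHOT2 and TRAK1 did not pass, at 0.05 and 0.07, and the 3' UTR of TRAK1 holds 7mer-m8 sites. Of 25 genes of cytoplasmic dynein and dynactin, the motor that runs towards minus ends, 5 rose and 7 fell, with a median of 0.04. BICD2, a dynein adaptor with 7mer-A1 sites, fell by 1.27 and DYNLT3 rose by 0.81. DYNLL2, with a 7mer-m8 site, rose by 0.54, and DCTN3 fell by 0.51. Of the 5 dynein and dynactin genes with an 8mer or 7mer site, 2 fell and 2 rose.

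**Figure D5:**
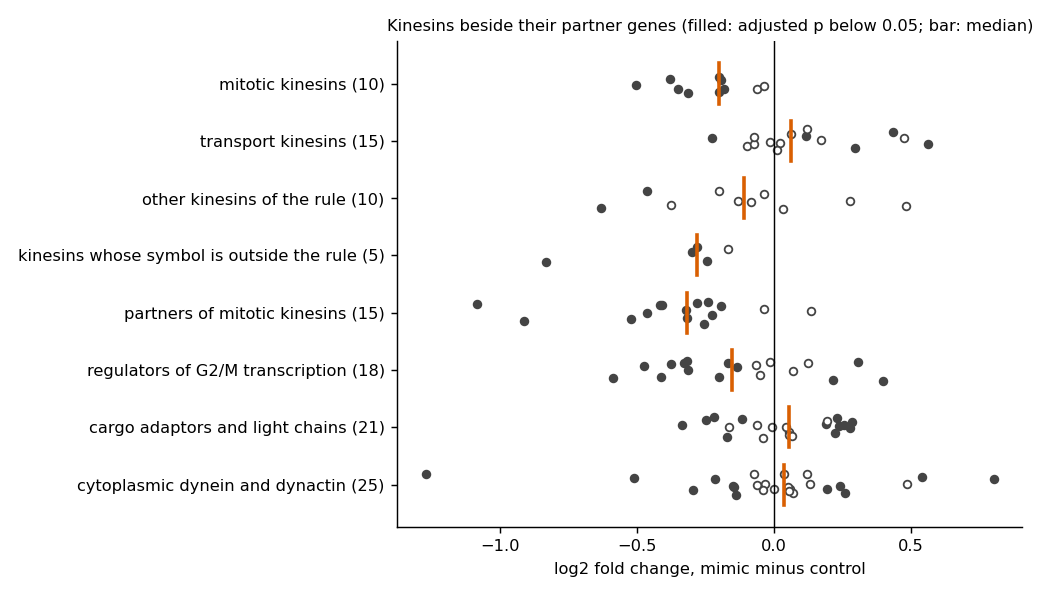
Log2 fold change (mimic minus control) of each tested gene in the kinesin classes and in the lists of partner genes, filled where the adjusted p was below 0.05, with a bar at the median and the number of genes in brackets. The medians of the mitotic kinesins and of their partners lie at -0.20 and -0.32, and those of the transport kinesins, the adaptors and dynein lie within 0.1 of 0.

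The motifs GACGTA and GACAGTA, which an earlier scan of these data picked for rises, were held by 5 of the 35 tested members (14.3%) and by 12.7% of the background genes. These were KIF1A, KIF1B, KIF5C, KIF6 and KIF13A, of which KIF1B rose, while KIF5B, KIF3C and KIF21B held neither motif. In annotation (GENCODE 29), exons of another gene on the opposite strand cover 6.33% of the exon bases of KIF22, 4.24% of KIF2C, 2.33% of KIF24, 2.12% of KIF20A and 1.71% of KIF18A among the members that fell. Whether the counts used strand is not known here, and the share of reads from these partners was not tested.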

How the data were processed

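The authors deposited 1 table of raw counts, a row for each gene symbol and a column for each of 8 libraries, with totals from 32485036 to 47248241, so that 3 counts correspond to 0.0638 to 0.0930 CPM; such floors cover counting error only. Per the submitters' processing notes, the tools were STAR, edgeR 3.3 under R 3.2.3, FastQC and cutadapt 1.8.1, with the build hg19 and no roles given. The counter, the annotation and the strand setting were not stated in the sources used here.

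Groups and replicate numbers came from the sample titles. The fit over the whole table used edgeR 4.0.16 under R 4.3.3 (filterByExpr, TMM, robust quasi-likelihood, Benjamini-Hochberg, threshold 0.05), and treatment was its single term. SE is the log2 fold change over the square root of F. CPM use TMM library sizes, and centred log2 CPM a prior count of 2. DESeq2 1.42.0 and limma 3.58.1 (voom) served as alternatives, beside other normalisations, filters, the replicate block and the removal of each library. In counts simulated for this comparison over 14977 genes, 50 genes were changed at each fold. There edgeR recovered 58% of genes changed 1.25-fold, 78% at 1.5-fold and 92% at 2-fold. Many kinesin changes are at or below the smallest of these folds. Far fewer genes were changed in the simulation than the 5712 that passed in the data, which makes its Benjamini-Hochberg adjustment stricter. These shares therefore do not give the recovery of the real fit.

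Sites and promoters were searched in Python 3.11.15 with pandas 2.3.3. Genes were joined to GENCODE 29 (GRCh38) by symbol: 20194 symbols were the same, 1475 matched by a RefSeq synonym and 1677 did not match. 3' UTRs had at least 50 bases. Exon lengths are the union of basic transcripts.

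Members and lists were chosen with earlier results of these data known, among them the fall of G2/M genes. Every member is accounted for. Values are given for each mitotic kinesin, each member that passed and each tested member with an 8mer or 7mer site, and other lists name genes of small p. CIT, the light chains and some regulators are named for their role, and KIFC3, RHOT2 and TRAK1 to complete their sets. Protein sequences were not used here.

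Deviations from the group mean were correlated between libraries of the same number (r of 0.27, 0.34, 0.18 and 0.43), so the numbers met the rule for pairing, an r above 0.1 in each pair. Exchanged numbers within replicates 1 and 2 and within 3 and 4 correlated as well (0.20 to 0.32), and the labels name no shared day, so these r do not set the same-numbered pairs apart from the exchanged ones. Between replicates, chi-square over its degrees of freedom was 3.64 to 16.8, above counting noise. The labels do not say that they were separate cultures, so the p-values cover the spread of these samples alone, which may be technical.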

Additional observations from a re-analysis of the deposited data

Results flagged for a closer look

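In groups of 4 libraries, a library was marked where its gap to the nearest other library was a larger part of the group's range than Dixon's 95% critical value. Chance marks about 1 in 20 groups, and 5 of the 70 groups of the 35 tested members were marked. KIF5A was low in control replicate 2 (11.8 CPM), KIF3A high in mimic replicate 2 (58.7 CPM), and KIF21A high in control replicate 3 (240.9 CPM). KIF2A was low in mimic replicate 3 (81.9 CPM), and KIF17 high in mimic replicate 2 (0.558 CPM, from 18 counts). KIF3A fell in each fit that left out 1 library, with adjusted p from 0.000527 to 0.00926.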

How the results depend on the processing

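The fall of 8 mitotic kinesins was the same count under RLE and upper quartile factors, DESeq2, limma-voom, both filters, the fit that was not robust and the replicate block, and 0 rose in any of these. With 1 library left out 7 to 8 mitotic kinesins fell, with a median log2 fold change from -0.23 to -0.16, and 3 to 5 transport kinesins rose, with a median from 0.04 to 0.10. Over all members, 10 to 11 fell and 3 to 5 rose. With the replicate block 8 kinesin genes rose in place of 4, KIF5A, KIF5C, KIF7 and KIF26A being added, and KIF12 also fell; the block changed no other call of a member. It raised calls over all genes too, from 5712 to 7616 of 14977, with 3778 in place of 2737 higher. Within replicates 1 and 2 alone 2 kinesin genes, both transport kinesins, rose. Counting 8mer and 7mer-m8 sites only, 3 of the 35 tested members held a site, against 11.9% of tested genes with a 3' UTR. With 6mer sites 8 members did, against 33.1% of those genes. Members that did not pass changed sign. With 1 library left out, the log2 fold change ran from -0.029 to 0.019 for KIF21A, from -0.069 to 0.0099 for KIF23, from -0.057 to 0.00050 for KIF2A, from -0.019 to 0.044 for KIF16B and from -0.24 to 0.074 for KIF26B. It was 0.019 for KIF21A within replicates 1 and 2, and -0.039 for KIF13B and -0.012 for KIF16B within replicates 3 and 4. The cause of these shifts was not tested. A P-loop comparison of the proteins was not run. The low counts of KIF2B, KIF19, KIF25 and KIF4B allow no statement on their change.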
